A study of Homo sapiens with 32 samples.

Results

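This set of 124 genes was well below control at 6 h, but little below it at 2 h, after treatment of RH4 cells with dCBP or IHK-44. RH4 is an established human cell line of alveolar rhabdomyosarcoma, a childhood tumour of cells resembling immature skeletal muscle. The genes were chosen by their measured values out of 18980 coding genes. A gene was taken if its mean CPM (the deposited read count scaled to library size) over the DMSO and NT libraries was at least 5, which left 10416 genes. Its log2 ratio to the time-matched DMSO library, with 1 added to each CPM, had to lie above -0.4 in all 4 dCBP and IHK-44 libraries of 2 h and at -1 or less in all 4 of 6 h. Symbols beginning with ZNF, HOX or COL were left out, which removed only ZNF385D from the genes that met the other conditions. The fall between 2 h and 6 h under dCBP and IHK-44 is therefore how the genes were selected and not a finding.

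The study treated RH4 cells with compounds described as inhibitors or degraders of CBP/p300. The 20 RNA-seq libraries of total RNA came from cells given 1 uM or 100 nM of A485, JQAD, dCBP or IHK-44 for 2 h or 6 h, and from DMSO (solvent) and NT controls at both times; NT is not explained in the labels. All came from 1 cell line with 1 library per condition, and the doses of a compound were the only repeats. A485 is a known inhibitor of the catalytic site of CBP and p300. The labels do not say which of the other compounds inhibits and which degrades.

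CBP and p300 are paralogous lysine acetyltransferases that act as coactivators at enhancers and promoters, where they acetylate histone H3 and H4 tails and other proteins. Messenger RNA of a gene falls after its transcription stops only as fast as the existing RNA decays and as polymerases already on the gene finish. Rhabdomyosarcoma cells express the myogenic regulators of early muscle but do not complete differentiation, and many genes near their strongest enhancers encode transcription factors, signalling receptors and muscle proteins.

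Totals of expected counts over coding genes ran from 13466631 to 16799327 per library. Of the 14 rhabdomyosarcoma markers listed, 11 averaged 1 CPM or more, and the list's summed level was 3281 to 3533 CPM in the DMSO and NT libraries and 1027 to 3937 over the 20 libraries. CDH3, MYF5 and MYF6 were below 1 CPM. None of the 6 epithelial or 5 endothelial markers reached 1 CPM on average, and 1 of 6 immune markers did. The share of TPM (a deposited length-corrected abundance scaled over all genes the authors quantified) held by coding genes was 27.9% to 35.4% in the dCBP and IHK-44 libraries and 37.9% to 53.9% in the others. On TPM as deposited, 4 genes met the rule and none of them was among the 124. The median gene above the level minimum had log2 ratios of -0.48 to -0.31 on that scale at 2 h. With each library's TPM ratios centred on the median gene, an alternative chosen after seeing the data, 95 genes met the rule and 78 of them were among the 124. On CPM, the median gene stood 0.13 to 0.20 above DMSO in the dCBP and IHK-44 libraries of 6 h and 0.13 above NT in 1 uM A485 of 6 h, so the ratios given here are slightly smaller than ratios relative to the median gene.

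The selected genes covered a wide range of levels. The median mean level in DMSO and NT was 79.9 CPM, against 45.3 CPM for all genes above the minimum, and ran from 5.76 CPM for GBP1 to 2625 CPM for CDK6. In 12 of the genes the lowest expected count of any library was under 50. The mean 6 h ratio over the 4 dCBP and IHK-44 libraries had a median of -1.52, a fold of 2.87, and ran from -2.70 for JPH2 to -1.05 for SULF1. All 124 genes were lower at 6 h than at 2 h within each of the 4 pairs of dCBP and IHK-44 libraries, with a median difference of -1.44. The 1 uM IHK-44 library was the lowest of the 4 at 6 h for 61 of the 124, and the share of all genes was not counted. That library also had the lowest 6 h median in genes at -1 or less at both times, -2.46, and in the other genes lower at 6 h, -1.98. At 2 h the 124 genes were already slightly low, as the limit allowed: the medians of the 4 libraries were -0.21 to -0.10 against DMSO and -0.30 to -0.18 against NT.

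The limits of the rule passed through a continuum. At the 6 h limit, KLHL29, UACA and SULF1 were just inside, with highest ratios of -1.0004, -1.0052 and -1.0055, and UST, NCKAP5 and DNMT3A just outside, at -0.9996, -0.9947 and -0.9878. At the 2 h limit, MAMLD1, MARCHF3 and EFNA5 were inside, with lowest ratios of -0.3978, -0.3965 and -0.3961, and HEG1 and MYMK outside, at -0.4018 and -0.4033. At the level limit, GBP1, EPHA5 and DEPTOR were the lowest inside, and KCNMB1, the highest outside, had 3.91 CPM. The 2 h controls bear on membership: the DMSO library of 2 h was below the NT library of 2 h for 92 of the 124 genes, with a median ratio of -0.10, whereas the median of all genes above the minimum was 0.00. With NT in place of DMSO, 77 of the 124 met the whole rule, and 114 were still at -1 or less in all 4 dCBP and IHK-44 libraries of 6 h.

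The 124 genes were long. This property was not used to choose them. By RefSeq annotation of GRCh38.p14, their genomic span from first to last annotated base had a median of 225 kb (quartiles 110 kb and 357 kb), and 94 of them (75.8%) spanned more than 100 kb. Over all genes above the minimum level the median was 33.3 kb, and 19.7% exceeded 100 kb. The 79 genes that were at -1 or less in all 4 dCBP and IHK-44 libraries at both times had a median span of 9.62 kb, and 7.59% exceeded 100 kb. The other 303 genes that were at -1 or less at 6 h had a median of 60.5 kb. RBFOX1, a neuronal and muscle splicing factor, was the longest at 2474 kb, and DMD, which encodes dystrophin, spanned 2220.2 kb at chrX:31119222-33339388. The shortest were SFT2D3 at 3.75 kb, MEX3A at 10.5 kb and GBP1 at 12.9 kb.

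**Figure D1:**
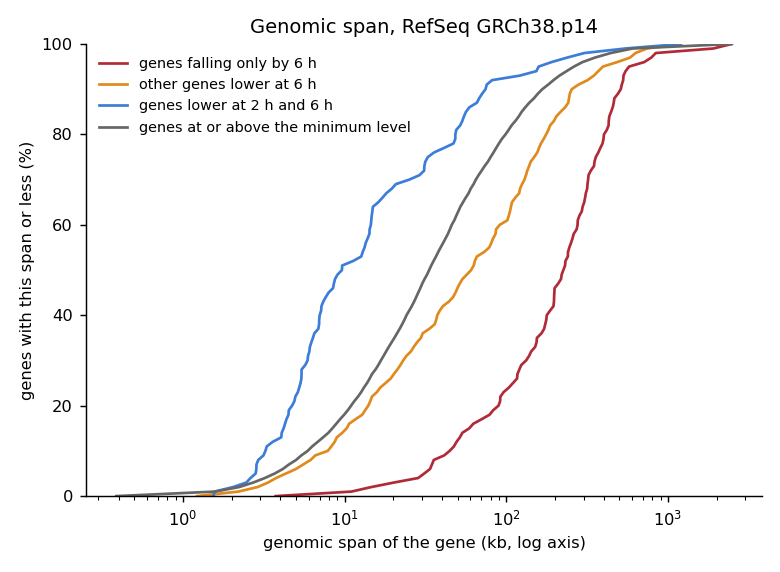
Cumulative share of genes (vertical axis, %) against genomic span (horizontal axis, kb, log scale) for the 124 genes, the 303 other genes lower at 6 h, the 79 genes lower at both times, and the genes above the minimum level. The median of the 124 lies at 225 kb and that of the 79 at 9.62 kb, with the genes above the minimum level between them at 33.3 kb.

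Among the 506 genes at -1 or less in all 4 libraries of 6 h, the share that belonged to the 124 rose with span in every bin. It was 2.86% (4 of 140) under 20 kb, 15.0% of 80 genes from 20 to 50 kb, 20.9% of 67 from 50 to 100 kb, 28.6% of 98 from 100 to 200 kb, and 54.5% (66 of 121) above 200 kb. The share already low in all 4 libraries of 2 h went from 38.6% under 20 kb to 2.48% above 200 kb. The spliced transcript length deposited with the values had a median of 6.49 kb for the 124, 3.54 kb for the 79 and 3.42 kb for all genes above the minimum. Among the 124 themselves span hardly followed the size of the fall: Spearman's correlation was -0.11 with the mean 6 h ratio and -0.02 with the ratio of 1 uM A485 to NT at 6 h, across 124 genes that share the same libraries. Gene length, transcript stability and enhancer use were not separated, and their part in the timing was not tested.

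The same timing in A485, compared with NT and so with no library used to fix a direction, was also set beside gene span. At 1 uM A485, 165 genes above the level minimum had a ratio above -0.4 at 2 h and at -1 or less at 6 h. They included 62 of the 124, which is 37.6% of the 165 and 50% of the 124. Their median span was 106 kb (quartiles 34.4 kb and 247 kb), a value that includes the 62 shared genes. The 103 of them outside the 124 had a median of 55.3 kb. That is near the 60.5 kb of the other 303 genes lower at 6 h and above the 33.3 kb of all genes above the minimum. The 122 genes at -1 or less at both times of 1 uM A485 had a median span of 14.6 kb (quartiles 5.89 kb and 50.1 kb).

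Promoter sequence separated the set less. RefSeq promoters, 250 bases before to 50 after the start in GRCh38.p14, were matched for 100 of the 124 genes. Their ratio of observed to expected CpG dinucleotides (cytosine followed by guanine, the site of DNA methylation) had a median of 0.76, against 0.78 for 59 matched genes of the 79 and 0.86 for 8706 genes above the minimum. A ratio of at least 0.6 was found in 70.0%, 72.9% and 87.1% of them, and in 65.8% of 237 matched genes of the other 303 lower at 6 h. The letters CAGCTG, an E-box bound by myogenic factors, were found on either strand in 20.0% of the matched promoters and in 16.4% of those above the minimum. CACGTG was found in 8.0% and 10.6%, TGANTCA in 5.0% and 3.66%, and TATAAA in 4.0% and 5.38%, all on both strands. In matched promoters of the 79 genes and of the other 303 lower at 6 h, CAGCTG was found in 22.0% and 20.3%. In the same 2 sets CACGTG was found in 16.9% and 9.28%, TGANTCA in 5.1% and 4.22%, and TATAAA in 10.2% and 13.1%. Each motif was searched on its own, so matches of CAGCTG and TGANTCA may share letters, and a match is only a description of the window.

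The promoters of the member with the most CpG, of 1 of those with none, of the most abundant member and of the member with the deepest fall show this range, 5′ to 3′, with each CpG in capitals. KCND3 (chr1:111989619-111989918, minus strand) encodes a voltage-gated potassium channel and holds 53 CpG. AKR1C3 (chr10:5048531-5048830, plus strand), an aldo-keto reductase of steroid and prostaglandin metabolism, holds none. Its printed strand contains CAGCTG, while TATAAA is found only on the opposite strand and reads TTTATA in the letters below. CDK6 (chr7:92836524-92836823, minus strand), the G1 cyclin-dependent kinase, holds 37, and JPH2 (chr20:44187139-44187438, minus strand), which ties the plasma membrane to the sarcoplasmic reticulum in muscle, holds 14.
KCND3: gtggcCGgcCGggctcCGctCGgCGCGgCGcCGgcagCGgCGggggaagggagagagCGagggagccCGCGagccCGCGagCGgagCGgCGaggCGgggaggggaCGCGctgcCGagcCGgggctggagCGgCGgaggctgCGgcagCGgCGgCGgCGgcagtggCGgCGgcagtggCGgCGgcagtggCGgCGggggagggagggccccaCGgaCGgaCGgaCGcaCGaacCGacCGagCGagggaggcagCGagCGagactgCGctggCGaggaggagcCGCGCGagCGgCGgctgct
AKR1C3: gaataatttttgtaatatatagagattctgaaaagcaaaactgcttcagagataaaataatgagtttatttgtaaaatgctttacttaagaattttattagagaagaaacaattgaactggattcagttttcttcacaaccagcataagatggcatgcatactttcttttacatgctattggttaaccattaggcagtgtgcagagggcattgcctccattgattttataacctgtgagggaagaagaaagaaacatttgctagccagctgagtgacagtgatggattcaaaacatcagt
CDK6: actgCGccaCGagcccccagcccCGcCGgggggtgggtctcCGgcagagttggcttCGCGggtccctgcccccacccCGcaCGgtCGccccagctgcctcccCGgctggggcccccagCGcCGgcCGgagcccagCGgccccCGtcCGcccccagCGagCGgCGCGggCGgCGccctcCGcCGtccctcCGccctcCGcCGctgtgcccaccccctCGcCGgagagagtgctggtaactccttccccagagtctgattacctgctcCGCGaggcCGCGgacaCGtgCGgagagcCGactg
JPH2: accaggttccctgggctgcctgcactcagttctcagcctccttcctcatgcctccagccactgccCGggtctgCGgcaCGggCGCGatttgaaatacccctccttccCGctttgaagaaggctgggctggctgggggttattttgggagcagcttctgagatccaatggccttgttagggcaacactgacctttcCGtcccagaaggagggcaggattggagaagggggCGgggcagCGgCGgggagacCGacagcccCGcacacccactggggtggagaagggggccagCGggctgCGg
All 4 genes met the same rule with these different promoters: the mean 6 h ratio over dCBP and IHK-44 was -1.52 for KCND3, -1.41 for AKR1C3, -1.65 for CDK6 and -2.70 for JPH2. AKR1C3 has close paralogues in the AKR1C cluster, and reads could be shared with them.

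A485 and JQAD took no part in choosing the genes, so their values are independent of the rule. In these bulk samples, fewer cells of a type and less RNA per cell cannot be told apart. Levels in the 1 uM A485 library of 6 h were below NT for 123 of the 124 genes, against 36.7% of 10416 genes. The median log2 ratio of the 124 was -1.05 (quartiles -1.36 and -0.83). The ratio was -1 or less for 74 of the 124 (59.7%), against a background of 4.4% of 10416 genes. At 100 nM and 6 h the median was -0.31 and 2 genes reached -1, against 0.403%. At 2 h the medians were -0.20 at 1 uM and -0.15 at 100 nM, and none of the 124 reached -1, against 1.8% and 0.221% of all genes. In JQAD of 6 h the medians were -0.12 at 1 uM and 0.01 at 100 nM, with none of the 124 at -1, against 0.0288% and 0.0096%.

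**Figure D2:**
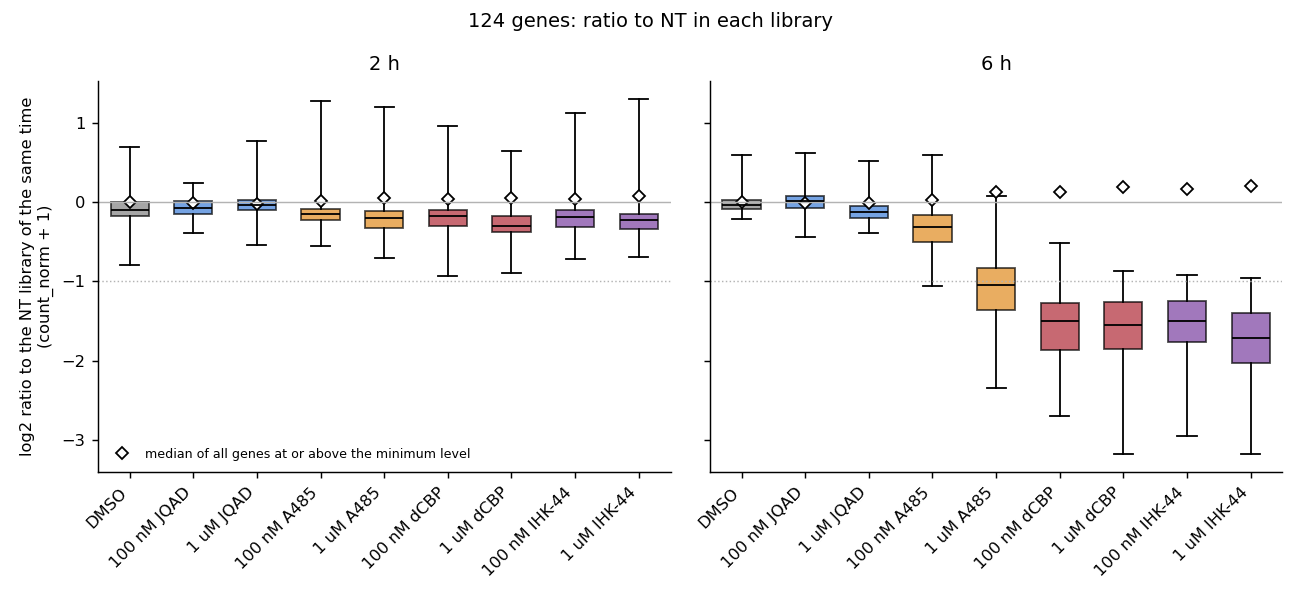
Log2 ratio of the 124 genes to the NT library of the same time (vertical axis) in each other library (horizontal axis), at 2 h and 6 h. Boxes give the median and quartiles, whiskers the lowest and highest gene, and diamonds the median of the 10416 genes above the minimum level. At 6 h the median falls from 0.01 in 100 nM JQAD to -0.31 in 100 nM A485 and -1.05 in 1 uM A485. The dCBP and IHK-44 boxes, whose low values at 6 h were set by the choice of genes, have medians from -1.71 to -1.50.

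By the test planned for these libraries, none of the 124 genes passed the adjusted threshold between A485 and JQAD. With both doses of each compound taken as repeats, edgeR's quasi-likelihood test called 0 of the 124 at 6 h after Benjamini-Hochberg adjustment, against a background of 0.00755% of 13245 genes called lower. The median difference of the 124 was -0.70, and 123 of them were negative, against 51.3% of all genes. An unadjusted p under 0.05 was found for 93 of them, against 28.1% of all genes. DESeq2 called 56 of them lower, against 633 of 10420 genes over all, and limma 2, against 43 of 13245. The 2 doses of A485 lay far apart at 6 h, and that distance enters the error of this test, together with the dose pairs at 2 h and of JQAD. Without the 100 nM A485 library of 6 h the median difference of the 124 was -1.22, against -0.02 for all genes tested. Without the 1 uM library it was -0.295, against 0. At 2 h the planned test called 0 (background 0.0%), 1 gene had an unadjusted p under 0.05 (10.8% of all genes), and DESeq2 and limma called 0. The median difference at 2 h was -0.21.

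The A485 doses were therefore also compared one at a time with the 3 libraries of JQAD and NT of the same time, a fit chosen after seeing the data. Its error comes from the JQAD and NT libraries with 4 residual degrees of freedom, and the lone A485 library is assumed to vary as they do. The fit takes NT and both JQAD doses as repeats of the same condition. Yet 1 uM JQAD of 6 h was below NT for 108 of the 124 genes, against 52.4% of 10416 genes. The p-values and SE of this fit therefore do not measure variation between replicates of A485. In this fit 123 of the 124 genes were lower in 1 uM A485 at 6 h by edgeR's quasi-likelihood test with an adjusted p under 0.05, against 19.7% of 13245 genes. The median difference was -1.24, from -2.54 for PKNOX2 to -0.29 for SFT2D3, the gene not called. DESeq2 called 121 and limma 120, and leaving out each JQAD or NT library in turn gave 122 or 123. At 100 nM the fit called 49 lower at 6 h, against 4.3%, with a median of -0.31, and 26 without the NT library of 6 h. At 2 h it called 27 of the 124 lower at 1 uM, against 5.49%, with a median of -0.27, and 15 to 47 when a JQAD or NT library was left out. None of the 124 was called at 100 nM and 2 h by edgeR (background 0.77%), DESeq2 or limma. The median difference there was -0.166, against 0.003 for all genes tested.

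The later fall was tested directly as the difference of the A485 effect at 6 h from that at 2 h. In the fit by single dose, 103 of the 124 genes had a larger fall at 6 h than at 2 h under 1 uM A485 (edgeR, adjusted p under 0.05), against 6.16% of 13245 genes, and the median difference of effects was -0.999. At 100 nM only PKNOX2 did, against 0.0302%. With the doses pooled as repeats, the planned test called 0 of the 124 (background 0.0%), although 23 had an unadjusted p under 0.05, against 7.84% of all genes. DESeq2 and limma also called 0 in that pooled test. The 21 genes not called at 1 uM included AKR1C3, whose effects at 2 h and 6 h were -0.58 and -0.51, and the low or variable DEPTOR, EBF1, EPHA5, RYR3 and SFT2D3.

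**Figure D3:**
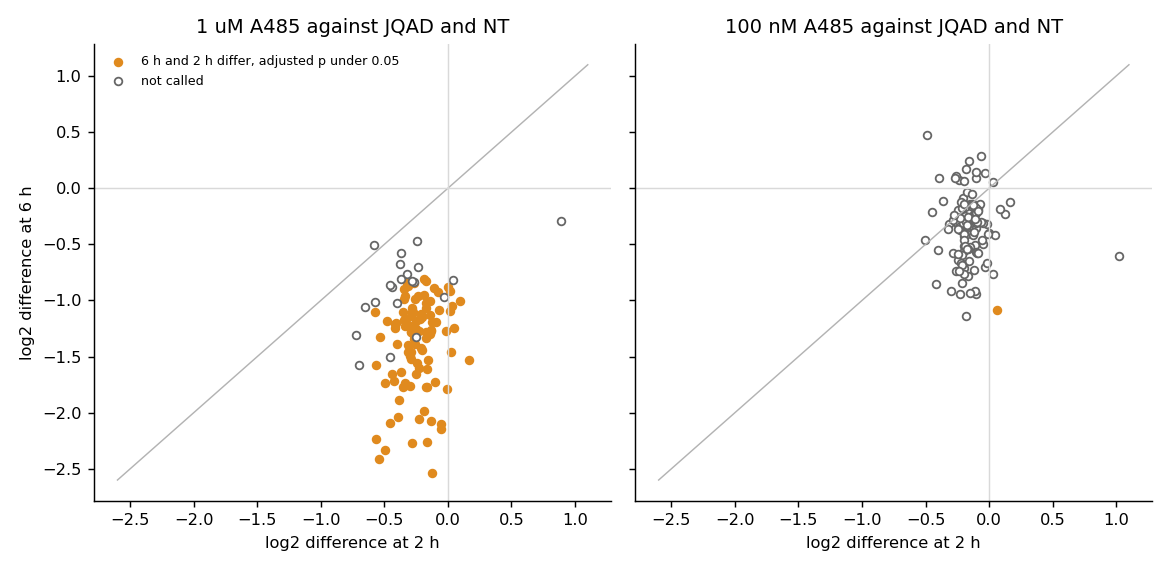
Log2 difference of each of the 124 genes between A485 and the JQAD and NT libraries at 2 h (horizontal axis) and 6 h (vertical axis), for 1 uM (left) and 100 nM (right). Filled points are genes whose 2 differences differ at an adjusted p under 0.05, 103 at 1 uM and 1 at 100 nM, and the line marks equal differences. At 1 uM most points lie below the line, and the point at 0.89 on the horizontal axis is SFT2D3.

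The A485 doses lay apart at 6 h. The 1 uM library was below the 100 nM library for 123 of the 124 genes at 6 h, against 34.7% of 10416 genes, and for 87 of them at 2 h, against 41.8%. The direct test at 6 h alone called 115 of the 124 lower at 1 uM (edgeR, adjusted p under 0.05), against 7.23%, with a median difference of -0.90, and at 2 h it called PDLIM3 only, against 1.27%. The planned test, with both times as repeats, called 1 of the 124, PDLIM3, against 1.69% of 12891 genes. DESeq2 called 12 there, and 97 genes had an unadjusted p under 0.05 against 13.9%. PDLIM3 encodes an actinin-binding protein of the Z disc.

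Beside the dCBP and IHK-44 levels of 6 h, which are low because the genes were chosen by them, the A485 levels are given as a description only. For 102 of the 124 genes the 1 uM A485 library of 6 h lay above all 4 dCBP and IHK-44 libraries and below the DMSO, NT and both JQAD libraries. The share of all genes in that order was not counted. The 1 uM A485 library was below NT and both JQAD libraries, which fixed no direction in the rule, for 123 genes, against 27.7% of 10416 genes. KSR1, a scaffold of the RAF, MEK and ERK kinases, was the only gene lower in 1 uM A485 than in all 4. The ratio of 1 uM A485 to NT was 69.5% of the mean dCBP and IHK-44 ratio to DMSO in the median gene, and that of 100 nM A485 19.4%. Across the 124 genes the 2 ratios had a Pearson's r of 0.62, a description over genes measured in the same libraries.

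**Figure D4:**
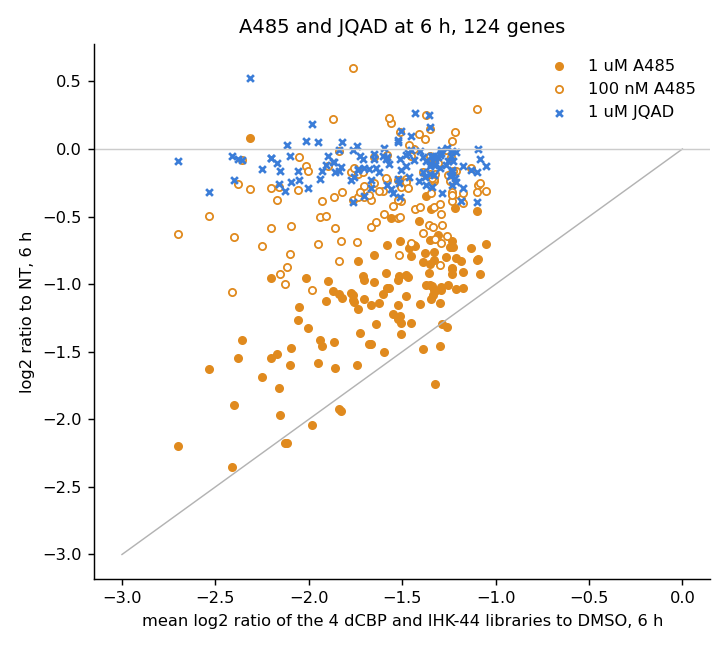
Log2 ratio to NT at 6 h (vertical axis) of 1 uM A485, 100 nM A485 and 1 uM JQAD against the mean log2 ratio of the 4 dCBP and IHK-44 libraries to DMSO at 6 h (horizontal axis), 1 point per gene and library. The line marks equal ratios. The 1 uM A485 points have a median of -1.05, the 100 nM points of -0.31, and the JQAD points lie around -0.12.

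The JQAD values were closer to NT than those of 1 uM A485. Against NT at 6 h, edgeR's quasi-likelihood test called 0 of the 124 (background 0.0%), and none had an unadjusted p under 0.05, against 1.24% of 13245 genes. DESeq2 and limma also called 0. The median difference was -0.05. The error of this test also holds the distance between the A485 doses: the SE of the 124 genes had a median of 0.29, against 0.12 for 1 uM A485 in the fit by single dose, so small changes could not have been called. The 1 uM JQAD library of 6 h was below NT for 108 of the 124 genes, against 52.4% of 10416 genes, and the 100 nM library for 59, against 53.2%. All these counts rest on 1 library a dose. Between 2 h and 6 h in NT and JQAD, edgeR's test called 6 of the 124 lower and 1 higher, against 1.33% and 1.19% of 12691 genes, with a median of -0.08. Without 100 nM JQAD of 2 h it called 32 of the 124 lower, against 771 of 12958 genes. Without that of 6 h it also called 32, against 770 of 12883. In a fit of all 20 libraries it called 0. The 6 were AKAP6, ALPK2, BACH2, BNC2, JARID2 and SLC7A7, and LIMD1 was higher. BACH2 and JARID2 were lower at 6 h in all 4 pairs of DMSO, NT and JQAD libraries.

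Of 8 function groups, assigned after the members were known, transcription factors and chromatin regulators held 21 of the 124 genes. The share of each group among the 10416 genes above the minimum was not counted, so group sizes are a description only. In family lists, 3 of 227 genes of transcription factor families and 0 of 85 chromatin enzymes and readers were members, against 1.19% of the 10416. The 21 had a median mean 6 h ratio of -1.77 under dCBP and IHK-44, values that chose the genes. In the groups that follow, calls are those of the fit by single A485 dose, and levels are those of 6 h unless a time is given. That fit called nearly all of the 124 at 1 uM and 6 h, so a group's calls there do not set it apart. The shares over all genes are those given above for the whole set. Differences between groups were not tested. Each call rests on 1 A485 library. In 1 uM A485 all 21 were called lower at 6 h, with a median ratio to NT of -1.28, and 18 fell further than at 2 h. PKNOX2, a TALE homeobox cofactor, had 85.9 CPM in DMSO, 88.3 in NT, 83.1 and 85.1 in 100 nM and 1 uM JQAD, 41.9 and 16.5 in 100 nM and 1 uM A485, 19.97 and 16.5 in 100 nM and 1 uM dCBP, and 18.8 and 8.84 in 100 nM and 1 uM IHK-44 at 6 h. Its 1 uM A485 library lay within the range of the dCBP and IHK-44 libraries and its 100 nM library between them and the rest, and the difference from JQAD and NT was -2.54 ± 0.10 (SE) at 1 uM (edgeR, adjusted p = 9.63e-09) and -1.08 at 100 nM (adjusted p = 8.23e-05). At 2 h PKNOX2 had 71.03 to 75.6 CPM in the DMSO, NT and JQAD libraries and 69.2 to 76.6 in the dCBP and IHK-44 libraries, which overlapped.

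GLI2 and GLI3, the transcription factors at the end of the Hedgehog pathway, were both in the set. GLI2 had 58.2 CPM in DMSO, 63.7 in NT, 66.4 and 54.2 in 100 nM and 1 uM JQAD, 40.1 and 16.4 in 100 nM and 1 uM A485, 12.2 and 10.99 in 100 nM and 1 uM dCBP, and 10.1 and 8.06 in 100 nM and 1 uM IHK-44 at 6 h. All 4 dCBP and IHK-44 libraries and 1 uM A485 lay at or below 16.4 CPM, with 100 nM A485 between them and the rest. The 1 uM A485 difference was -2.07 ± 0.16 (SE) for GLI2 and -1.16 ± 0.13 (SE) for GLI3 (edgeR, adjusted p = 7.33e-07 and 1.95e-05). GLI3 had 159.5 to 211 CPM in the DMSO, NT and JQAD libraries, 164 in 100 nM A485, 93.8 in 1 uM A485 and 47.8 to 65.4 in the dCBP and IHK-44 libraries. The 2 doses of A485 stood apart for both genes, by -1.40 and -0.92 on the log2 scale.

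BACH2, a repressor of the BTB and leucine zipper type known from lymphocytes, had 34.6 CPM in DMSO, 35.9 in NT, 32.8 and 28.7 in 100 nM and 1 uM JQAD, 25.2 and 10.96 in 100 nM and 1 uM A485, 4.67 and 6.49 in 100 nM and 1 uM dCBP, and 5.66 and 4.03 in 100 nM and 1 uM IHK-44 at 6 h. The treated and reference libraries did not overlap at 1 uM A485, whose difference was -1.73 ± 0.17 (SE) (edgeR, adjusted p = 7.16e-06), while 100 nM A485 at -0.42 was not called (adjusted p = 0.128). JARID2, a cofactor of the Polycomb complex PRC2, had 76.1 to 84.1 CPM in the DMSO, NT and JQAD libraries, 53.01 in 100 nM A485, 26.7 in 1 uM A485 and 14.4 to 20.7 in the dCBP and IHK-44 libraries, and TOX, an HMG-box factor, had 9.62 to 11.1 CPM in the DMSO, NT and JQAD libraries, 6.35 in 100 nM A485, 2.74 in 1 uM A485 and 1.20 to 1.74 in the dCBP and IHK-44 libraries. SOX6, which acts in the specification of fast muscle fibres, had 22.7 to 28.1 CPM in the DMSO, NT and JQAD libraries, 22.2 in 100 nM A485, 7.28 in 1 uM A485 and 4.35 to 7.26 in the dCBP and IHK-44 libraries. NFIB and NFIA, nuclear factor I proteins, differed by -1.19 and -0.92 at 1 uM A485, and 100 nM A485 was called for neither. EYA4, a cofactor of sine oculis homeobox factors in myogenesis, had 115 to 134 CPM in the DMSO, NT and JQAD libraries, 128 in 100 nM A485, 60.6 in 1 uM A485 and 29.9 to 39.7 in the dCBP and IHK-44 libraries, so that only 1 uM A485 left the reference range. MAMLD1, a coactivator of the Notch type, was called lower in 1 uM A485 at both times, by -0.37 at 2 h and -1.64 at 6 h, and by -1.27 more at 6 h.

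PEG3, an imprinted zinc finger gene, was the second most abundant member. It had 2102 CPM in DMSO, 2168 in NT, 2255 and 2046 in 100 nM and 1 uM JQAD, 2164 and 1323 in 100 nM and 1 uM A485, 830.3 and 731 in 100 nM and 1 uM dCBP, and 952 and 629.6 in 100 nM and 1 uM IHK-44 at 6 h. The 100 nM A485 library was within the reference range and 1 uM A485 was below it, with a difference of -0.87 ± 0.09 (SE) (edgeR, adjusted p = 1.42e-05). EBF1, an early B-cell factor that also acts in mesenchymal cells, was low and variable: it had 6.84 CPM in DMSO and 12.6 in NT at 2 h, and 13.2 in 100 nM A485 at 6 h, above all DMSO, NT and JQAD libraries of that time. HR, BNC2, FOXN3, JAZF1, TBL1X, ZMIZ1, BAHCC1 and CECR2 completed the group, whose 1 uM A485 ratios to NT at 6 h ran from -2.35 to -0.45.

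**Figure D5:**
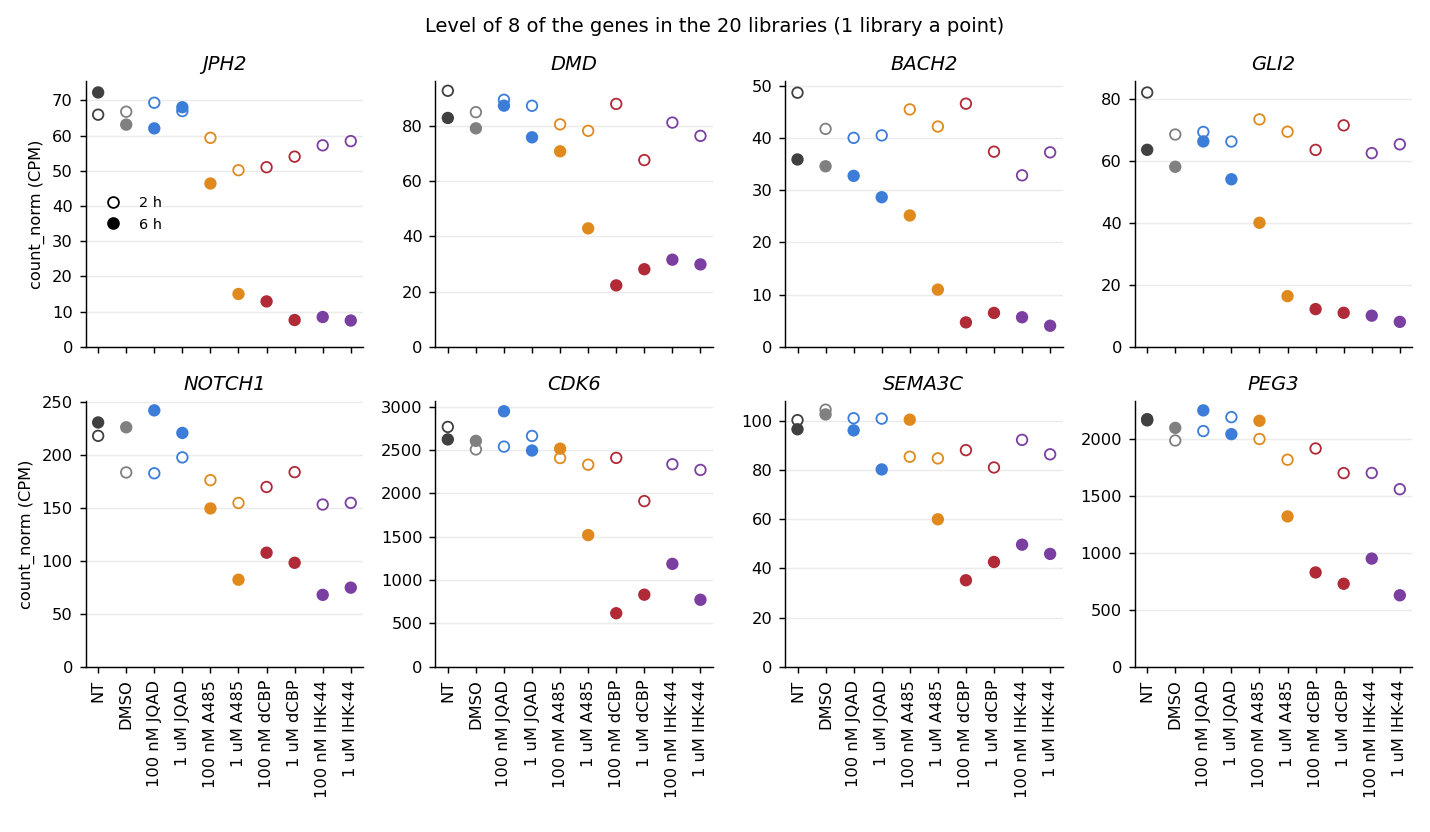
Level (vertical axis, CPM from 0) of 8 of the genes in the 20 libraries (horizontal axis), with 2 h as open and 6 h as filled circles, 1 library a point. The 6 h points of dCBP and IHK-44 are low by selection. The 1 uM A485 point of 6 h lies below the DMSO, NT and JQAD points in all 8 genes, while the 100 nM A485 point lies within them for CDK6, PEG3 and SEMA3C.

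Genes of muscle excitation, calcium release and the sarcolemma formed a group of 15, with a median mean 6 h ratio of -1.55. All 15 were called lower in 1 uM A485 at 6 h, 6 were called at 100 nM, and 14 fell further at 6 h than at 2 h. JPH2 had 63.1 CPM in DMSO, 72.3 in NT, 62.1 and 68.1 in 100 nM and 1 uM JQAD, 46.4 and 15.003 in 100 nM and 1 uM A485, 12.9 and 7.59 in 100 nM and 1 uM dCBP, and 8.45 and 7.46 in 100 nM and 1 uM IHK-44 at 6 h. The 1 uM A485 library lay just above the dCBP and IHK-44 range, and the 100 nM A485 library was also below every reference library. The difference was -2.33 ± 0.12 (SE) at 1 uM and -0.60 ± 0.11 (SE) at 100 nM (edgeR, adjusted p = 5.05e-08 and 0.00606). JPH2 was also 1 of the 4 genes of the group called at 1 uM and 2 h, at -0.50, and its effect at 6 h differed from that at 2 h by -1.84.

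DMD, whose product links the actin cytoskeleton to the sarcolemma, had 79.1 CPM in DMSO, 82.9 in NT, 87.4 and 75.9 in 100 nM and 1 uM JQAD, 70.8 and 42.9 in 100 nM and 1 uM A485, 22.2 and 28.1 in 100 nM and 1 uM dCBP, and 31.5 and 29.8 in 100 nM and 1 uM IHK-44 at 6 h. Its 1 uM A485 library lay between the 2 ranges, with a difference of -1.10 ± 0.10 (SE) (edgeR, adjusted p = 3.36e-06), and 100 nM A485 was not called. DTNA and SNTB1, which encode dystrobrevin alpha and syntrophin beta 1 of the same complex, were also in the set. SCN4A, the sodium channel of skeletal muscle, had 131 to 137 CPM in the DMSO, NT and JQAD libraries, 109 in 100 nM A485, 52.4 in 1 uM A485 and 33.8 to 48.1 in the dCBP and IHK-44 libraries.

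RYR1, the calcium release channel of skeletal muscle, and RYR3, its relative, varied among the control and JQAD libraries. RYR1 had 199 CPM in DMSO and 322 in NT at 2 h, and 205 and 319 in 1 uM and 100 nM JQAD at 6 h. RYR3 had 50.2 and 87.8 in the same JQAD libraries. Both were called lower in 1 uM A485 at 6 h, by -1.003 ± 0.22 (SE) and -0.82 ± 0.25 (SE) (edgeR, adjusted p = 0.0042 and 0.0239), and their dose difference at 6 h was not called. PALLD and PDLIM3 of the actin and Z-disc apparatus, MEGF10 of muscle stem cells, MYO18B, SVIL, PGM5, ALPK2 and AKAP6 made up the rest. The A485 ratios to NT of the 15 at 1 uM and 6 h ran from -2.19 to -0.46.

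Surface receptors, ligands and matrix modifiers were the largest group, with 25 genes. All 25 were called lower in 1 uM A485 at 6 h, 22 fell further at 6 h than at 2 h, and the median ratio to NT was -1.12. NOTCH1, the receptor that releases a transcriptional coactivator when cut, had 226 CPM in DMSO, 230.3 in NT, 242 and 220.4 in 100 nM and 1 uM JQAD, 149 and 82.1 in 100 nM and 1 uM A485, 108 and 98.1 in 100 nM and 1 uM dCBP, and 67.9 and 74.6 in 100 nM and 1 uM IHK-44 at 6 h. Both A485 libraries lay below all reference libraries, and 1 uM A485 lay among the dCBP and IHK-44 libraries, with a difference of -1.66 ± 0.11 (SE) (edgeR, adjusted p = 2.2e-07). At 2 h NOTCH1 was called at -0.44 (adjusted p = 0.0136). NECTIN1, an immunoglobulin-type adhesion molecule, had 943 to 1040.0 CPM in the DMSO, NT and JQAD libraries, 634 in 100 nM A485, 338 in 1 uM A485 and 261 to 378 in the dCBP and IHK-44 libraries, and PCDH7, a protocadherin, had 672 to 714 CPM in the DMSO, NT and JQAD libraries, 637 in 100 nM A485, 353 in 1 uM A485 and 143 to 256 in the dCBP and IHK-44 libraries.

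Axon guidance genes were represented by EFNA5, NTN4, PLXNA2 and SEMA3C. The ephrin ligand EFNA5 had 97.3 to 124 CPM in the DMSO, NT and JQAD libraries, 109.5 in 100 nM A485, 50.4 in 1 uM A485 and 22.7 to 28.1 in the dCBP and IHK-44 libraries. Its 1 uM A485 library was far below the reference libraries and its 100 nM library inside their range. PLXNA2, a semaphorin receptor, had 186 to 215 CPM in the DMSO, NT and JQAD libraries, 155 in 100 nM A485, 73.7 in 1 uM A485 and 45.3 to 65.1 in the dCBP and IHK-44 libraries, and the secreted NTN4 had 34.9 to 41.5 CPM in the DMSO, NT and JQAD libraries, 26.1 in 100 nM A485, 15.999 in 1 uM A485 and 13.6 to 17.5 in the dCBP and IHK-44 libraries. Both were called at either A485 dose, PLXNA2 at -1.61 and -0.42 and NTN4 at -1.46 and -0.65 for 1 uM and 100 nM. The secreted semaphorin SEMA3C had 103 CPM in DMSO, 96.5 in NT, 96.1 and 80.2 in 100 nM and 1 uM JQAD, 100.4 and 59.95 in 100 nM and 1 uM A485, 35.2 and 42.6 in 100 nM and 1 uM dCBP, and 49.6 and 45.9 in 100 nM and 1 uM IHK-44 at 6 h. It was called at 1 uM only, and its further fall from 2 h, -0.44, was not called (adjusted p = 0.0947). EPHA5, an ephrin receptor, was near the level limit with 5.31 to 6.95 CPM in the DMSO, NT and JQAD libraries, 6.89 in 100 nM A485, 3.58 in 1 uM A485 and 1.75 to 2.65 in the dCBP and IHK-44 libraries. SULF1, an extracellular sulfatase that trims heparan sulfate, had the smallest mean fall in dCBP and IHK-44, with 104 to 116 CPM in the DMSO, NT and JQAD libraries, 91.2 in 100 nM A485, 69.04 in 1 uM A485 and 54.1 to 57.1 in the dCBP and IHK-44 libraries.

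Intracellular signalling genes, GTPase regulators and ubiquitin ligases numbered 21. All 21 were called lower in 1 uM A485 at 6 h and 10 at 100 nM. CDK6, the most abundant member, had 2605 CPM in DMSO, 2622 in NT, 2947 and 2494 in 100 nM and 1 uM JQAD, 2515 and 1519 in 100 nM and 1 uM A485, 618 and 832 in 100 nM and 1 uM dCBP, and 1188 and 774 in 100 nM and 1 uM IHK-44 at 6 h. The 100 nM A485 library was within the reference range, 1 uM A485 was below it with a difference of -0.99 ± 0.11 (SE) (edgeR, adjusted p = 1.66e-05), and the dCBP and IHK-44 libraries were lower still. KSR1 had 77.7 CPM in DMSO, 81.03 in NT, 75.1 and 77.5 in 100 nM and 1 uM JQAD, 50.8 and 23.6 in 100 nM and 1 uM A485, 35.5 and 33.3 in 100 nM and 1 uM dCBP, and 24.1 and 29.95 in 100 nM and 1 uM IHK-44 at 6 h, with a difference of -1.89 ± 0.11 (SE) at 1 uM A485 (adjusted p = 1.11e-07). VAV3, a guanine nucleotide exchange factor, had 75.05 to 84.3 CPM in the DMSO, NT and JQAD libraries, 74.9 in 100 nM A485, 29.3 in 1 uM A485 and 12.3 to 22.6 in the dCBP and IHK-44 libraries, and ARHGAP24, which inactivates Rac, had 39.98 to 44.01 CPM in the DMSO, NT and JQAD libraries, 35.1 in 100 nM A485, 13.8 in 1 uM A485 and 5.53 to 10.4 in the dCBP and IHK-44 libraries.

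INPP4B, a phosphoinositide phosphatase, and DEPTOR, an inhibitor of mTOR, belong to the PI3K and mTOR pathway. INPP4B had 44.3 to 46.8 CPM in the DMSO, NT and JQAD libraries, 37.7 in 100 nM A485, 23.5 in 1 uM A485 and 6.73 to 12.3 in the dCBP and IHK-44 libraries, and its 1 uM A485 library lay well above the dCBP and IHK-44 libraries. DEPTOR had 5.47 to 8.80 CPM in the DMSO, NT and JQAD libraries, 3.75 in 100 nM A485, 2.93 in 1 uM A485 and 2.26 to 3.54 in the dCBP and IHK-44 libraries, and rests on as few as 34 expected counts. ARRB1, which encodes beta-arrestin 1, had 565 to 608 CPM in the DMSO, NT and JQAD libraries, 411 in 100 nM A485, 245 in 1 uM A485 and 161 to 264 in the dCBP and IHK-44 libraries and was called at both doses, at -1.43 and -0.57. PALM2AKAP2, a fused paralemmin and kinase anchor locus, was called at 1 uM only, at -1.25. MARCHF3, a membrane ubiquitin ligase, was called at both doses, at -1.32 and -0.41, and at 1 uM already at 2 h (-0.53). KLHL29, a Kelch-type protein, differed by -1.09.

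Cytoskeletal, membrane traffic and scaffold genes numbered 18, with a median mean 6 h ratio of -1.51 under dCBP and IHK-44. TNS3, a focal adhesion tensin, had 154 to 165 CPM in the DMSO, NT and JQAD libraries, 126 in 100 nM A485, 56.96 in 1 uM A485 and 23.999 to 50.4 in the dCBP and IHK-44 libraries, and UACA, a coiled-coil protein, had 69.04 to 90.9 CPM in the DMSO, NT and JQAD libraries, 72.9 in 100 nM A485, 51.1 in 1 uM A485 and 34.5 to 41.2 in the dCBP and IHK-44 libraries. Their differences at 1 uM A485 were -1.65 ± 0.09 (SE) and -0.86 ± 0.14 (SE) (edgeR, adjusted p = 5.73e-08 and 0.00054), and 13 of the 18 fell further at 6 h than at 2 h. ANK3, DNM3, FMN1, STXBP6 and UACA did not pass that test. The 7 ion channel and transporter genes, among them CLCN5, a chloride and proton exchanger of endosomes, and the potassium channels KCND3, KCNH1 and KCNH2, had the lowest group median in 1 uM A485 against NT, -1.46. CLCN5 had 482 to 550.2 CPM in the DMSO, NT and JQAD libraries, 482 in 100 nM A485, 304 in 1 uM A485 and 172 to 246 in the dCBP and IHK-44 libraries.

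The 6 RNA-binding proteins were KHDRBS3, LRRFIP1, MEX3A, RBFOX1, RBM20 and SAMD4A. All 6 were called lower in 1 uM A485 at 6 h and all 6 fell further than at 2 h. RBM20, the splicing regulator of titin, had 54.8 to 64.3 CPM in the DMSO, NT and JQAD libraries, 54.2 in 100 nM A485, 31.4 in 1 uM A485 and 13.95 to 18.1 in the dCBP and IHK-44 libraries. The remaining 11 genes, of metabolism, DNA repair and unassigned function, had a median span of 64.0 kb, the shortest of the 8 groups. BCAT1, the cytosolic branched-chain aminotransferase, had 339 to 387 CPM in the DMSO, NT and JQAD libraries, 331 in 100 nM A485, 228 in 1 uM A485 and 124 to 169 in the dCBP and IHK-44 libraries. GBP1, an interferon-inducible GTPase at the level limit, had 4.96 to 6.59 CPM in the DMSO, NT and JQAD libraries, 4.30 in 100 nM A485, 1.68 in 1 uM A485 and 0.637 to 1.61 in the dCBP and IHK-44 libraries, with a lowest expected count of 9. SFT2D3, a Golgi transport protein, had 10.8 CPM in DMSO, 8.09 in NT, 7.93 and 12.1 in 100 nM and 1 uM JQAD, 6.42 and 8.61 in 100 nM and 1 uM A485, 4.33 and 0 in 100 nM and 1 uM dCBP, and 3.83 and 0.22 in 100 nM and 1 uM IHK-44 at 6 h, and one of the libraries that selected it held an expected count of 0. For this gene 1 uM A485 lay within the DMSO, NT and JQAD range at 6 h and the 100 nM library below it. At 2 h both A485 libraries were above that range.

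In pathway lists, the 124 genes were spread over many lists. These were compiled with earlier results of these data known and are given only as counts among genes above the level minimum. Of 10416 genes, 124 were members, 79 had fallen by 2 h, and 303 others were lower at 6 h. Of 12 Hedgehog genes 2 were members (GLI2 and GLI3), 2 had fallen by 2 h and 1 was another gene lower at 6 h. Of 22 Notch genes 1 was a member (NOTCH1), 2 had fallen by 2 h and 5 others were lower at 6 h. Of 27 myogenic factors and cofactors 1 was a member (EYA4), 4 had fallen by 2 h and 10 others were lower at 6 h. Of 37 sarcomere and muscle structure genes 4 were members, none had fallen by 2 h and 4 others were lower at 6 h. Of 39 ion channel genes 5 were members (CLCN5, KCND3, KCNH1, KCNH2 and SCN4A), and of 33 axon guidance genes 4 were.

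The 124 are 1.19% of the genes above the level minimum, so an absence from lists of this size is near the background share. Of 41 DNA replication genes, 40 mitosis genes and 50 genes of PTP and PP1 phosphatases and their subunits none was a member, had fallen by 2 h or was lower at 6 h. Of 85 chromatin enzymes and readers none was a member and 2 others were lower at 6 h. None of 42 Wnt genes, 46 TGF-beta and BMP genes, 21 cell adhesion receptors or 34 matrix genes was a member. Of 22 G1 cell cycle genes 1 was a member (CDK6). Of 227 genes in transcription factor families named by prefix 3 were members (EBF1, FOXN3 and SOX6), which is near the background share. In the same list 14 had fallen by 2 h and 26 others were lower at 6 h.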

How the data were processed

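RNA-seq of total RNA was available for 20 libraries of RH4 cells, 1 per condition. The 11 ChIP and 1 ChRO samples were not analysed here. The authors deposited per gene expected counts, TPM and a normalised count in CPM, and STAR 2.5.3a, RSEM 1.3.3 and hg38 (with mm10) are listed in the submitters' processing notes, which do not tie them to a file. Of the deposited expected counts 88.5% were whole. They were rounded for edgeR 4.0.16 and DESeq2 1.42.0. The genes and lists were chosen with earlier results of these data known, and the function groups were assigned from general knowledge after the members were known.

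Because the rule used DMSO, dCBP and IHK-44, tests used only the A485, JQAD and NT libraries. The planned tests were edgeR's quasi-likelihood test with TMM scaling, edgeR's default filter on low counts and Benjamini-Hochberg adjustment over all genes (threshold 0.05), taking the doses of a compound as repeats. Their p-values measure only the spread between these libraries, which includes the effect of dose and may otherwise be technical. The fit of each A485 dose by itself was chosen after seeing the data. It set 1 A485 library against NT and both JQAD doses taken as the same condition. Its p-values therefore do not measure variation between replicates of A485. Ratios and limma 3.58.1 used log2(CPM + 1), which understates changes of low genes. The tests were also run on simulated counts with the same spread in every library. For the single-dose fit, NT and JQAD shared 1 mean in that simulation. It therefore cannot check whether a lone A485 library varies as the references do, or whether NT and JQAD are alike. R 4.3.3, Python 3.11.15, pandas 2.3.3, numpy 2.4.6 and matplotlib 3.10.9 were used.

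The rule for named genes took the 12 members with the lowest mean 6 h ratio, the 10 with the highest control level, every member in a pathway list, members called between A485 and JQAD or between JQAD and NT at 6 h (there were none), and the 3 genes nearest each limit on either side, which gave 41 members. Other members were named after their values were seen. Alternatives covered the control, pseudocount, level minimum, both ratio limits, TPM, centred ratios, DESeq2, limma, RLE scaling, no filter, a fit of all 20 libraries, and leaving out each library. One gene just outside a limit is not reported here. Promoters and spans came from RefSeq tables for GRCh38.p14.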

Additional observations from a re-analysis of the deposited data

Results flagged for a closer look

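The difference between 1 uM A485 and the JQAD and NT libraries changed from 2 h to 6 h in 103 of the 124 genes, by a direct test of that change in the fit of single A485 doses (edgeR, adjusted p under 0.05), against 6.16% of 13245 genes. All 103 had the larger fall at 6 h. The test rests on 1 library of 1 uM A485 at each time.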

How the results depend on the processing

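The number of genes meeting the rule was 79 with a 2 h limit of -0.3, 174 with -0.5, 67 with a 6 h limit of -1.2, 176 with -0.8, 130 (98 of the 124) with centred ratios and 4 on TPM. Leaving out 1 library gave 124 to 172. Stricter limits can only lower the count, and looser limits or fewer libraries only raise it. For TPM the cause was not tested. Counts below are of the 124 genes called lower. The number called over all genes also changed with the setting, so these counts alone do not describe the 124. For A485 against JQAD at 6 h, where edgeR called 0, DESeq2 called 56, no filter 45, limma 2, all 20 libraries together 44, 1 uM A485 by itself 123 and 100 nM 49. Leaving out 1 library gave 0 to 121, with medians of -1.22 to -0.295. At 2 h, leaving out 1 library from this pooled-dose test gave 0, with medians of -0.26 to -0.149, whereas 1 uM A485 by itself gave 27. For the change with time, leaving out 1 library from the pooled-dose test, which called 0, gave 0 to 100, with medians of -1.04 to -0.125, whereas single doses gave 103 at 1 uM and 1 at 100 nM. For A485 against NT at 6 h edgeR called 0, against 0.00755% of 13245 genes. An unadjusted p under 0.05 was found for 82, against 21.6% of all genes. DESeq2 called 18 (234 of 10934 genes over all), no filter 7 (98 of 16580), all 20 libraries 17 (186 of 13516) and limma 0. Leaving out 1 library gave 0 to 117, with medians of -1.244 to -0.361. JQAD against NT gave 0 throughout, with medians of -0.105 to 0.012. For 1 uM against 100 nM A485, DESeq2 called 12, no filter 27, all 20 libraries 0 and 6 h alone 115. Leaving out 1 library gave 0 to 114, with medians of -0.892 to -0.102. For 6 h against 2 h in NT and JQAD, DESeq2 called 2 and all 20 libraries 0. Leaving out 1 library gave 1 to 32, with medians of -0.111 to -0.029. The 32 came without either 100 nM JQAD library, where 771 of 12958 or 770 of 12883 genes were called lower.

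In the fit of single A485 doses, leaving out 1 JQAD or NT library gave 122 to 123 genes for 1 uM at 6 h, 26 to 58 for 100 nM at 6 h, 15 to 47 for 1 uM at 2 h (limma 17), 0 for 100 nM at 2 h, 96 to 109 for 6 h minus 2 h at 1 uM, 1 to 12 at 100 nM (DESeq2 6, no filter 4), 107 to 118 for dose at 6 h, and 0 to 1 for dose at 2 h (DESeq2 0, RLE scaling 0, limma 0). Among single genes in A485 against JQAD at 6 h, the sign turned for EPHA5 (0.191) and SEMA3C (0.143) without 1 uM A485, and for RYR3 (0.034) without 100 nM JQAD, while without 100 nM A485 they were -0.884, -0.721 and -0.911. Where no construction is named, the cause was not tested. No paired analysis was possible because the labels give no replicate numbers and each condition has 1 library. With 1 library per condition, the depth of low genes such as GBP1, DEPTOR and SFT2D3 limits their values.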
